A study of Drosophila melanogaster with 5 samples.

Results

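Values for 2 transcripts of Drosophila melanogaster, of the 16637 in the deposited array table, were compared between dDP mutant and wild-type larvae. FBtr0077747 is the transcript of Rad1, which it shares with Sws1, and FBtr0076203 is the transcript of SuUR. Both were chosen from the named transcripts with their genotype differences already known, as genes of DNA damage signalling and of endoreplication. The differences between genotypes are therefore a description of these arrays and support nothing by themselves. What the choice did not use directly is how the values varied within each genotype. The shift in where they stood on each array restates the genotype difference, since the array medians were nearly equal.

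The mutant larvae were dDPa3/dDPa4 transheterozygotes (3 arrays, replicates 1 to 3) and the controls were w1118 wild-type larvae (2 arrays, replicates 1 and 3). All were untreated larvae of the third instar raised on regular medium, and the age in hours was not given. Each sample's total RNA, labelled with Cy3, was read on a NimbleGen array of its own. The sample titles call the mutant a knockdown, and the genotype field was followed here. The labels do not say that replicates were separate collections of larvae, so p-values measure the spread between these arrays, which may be technical. RNA appears to have come from whole larvae, since no tissue is named, so a change in the number of cells of a type and a change in RNA per cell cannot be told apart. The labels name no batch. The deposited values lay between 4.98 and 15.73 and the array medians between 11.64 and 11.69. Arrays correlated across transcripts at r = 0.986 in the wild type, 0.957 to 0.972 in the mutant, and 0.927 to 0.965 between genotypes. dDP expression was not analysed here, and 0 of the 31 markers in 7 cell type lists could be linked to a transcript, so neither the mutation nor the cell types were checked.

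DP is the partner with which E2F proteins bind DNA, and the complexes both activate and repress genes of the cell cycle. Most larval tissues of the fly grow by endoreplication, in which cells repeat DNA synthesis without dividing and become polyploid. Rad1 forms a ring-shaped clamp with Rad9 and Hus1. The clamp is loaded at damaged or stalled DNA and helps to activate the checkpoint kinase ATR, called mei-41 in the fly. SuUR is a chromatin protein that slows replication forks in heterochromatin of polyploid cells, where those regions are left underreplicated. Sws1 is encoded by a second reading frame of the Rad1 transcript. In fission yeast, Sws1 acts in homologous recombination.

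Rad1 stood higher in the mutant on every array. On the scale of the deposited RMA values, taken to be log2, the Rad1/Sws1 transcript read 11.557 and 11.567 on wild-type replicates 1 and 3. It read 12.492, 12.911 and 12.819 on mutant replicates 1, 2 and 3. All 3 mutant values lay above both wild-type values, and mutant replicate 1 was the lowest of the 3. The lowest mutant value exceeded the highest wild-type value by 0.92, or 1.9-fold. The mean of the wild-type arrays was 11.56 ± 0.007 (SD, n = 2). That of the mutant arrays was 12.74 ± 0.22 (SD, n = 3). Taken singly, the 6 pairs of a mutant and a wild-type array differed by 0.92 to 1.35, which is 1.9-fold to 2.56-fold. The mean difference of 1.18 corresponds to a ratio of 2.26 (95% interval 1.61 to 3.18, from limma's moderated variance). The array summarises 1 value for the whole transcript, so it cannot be divided between Rad1 and Sws1.

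SuUR was also higher in the mutant on every array, by a smaller amount. Its transcript read 11.333 and 11.405 on wild-type replicates 1 and 3. On mutant replicates 1, 2 and 3 it read 11.98, 11.834 and 12.124. The groups did not overlap, and here mutant replicate 2 was the lowest of the 3. The lowest mutant value exceeded the highest wild-type value by 0.43, or 1.35-fold. The wild-type arrays averaged 11.37 ± 0.0502 (SD, n = 2) and the mutant arrays 11.98 ± 0.145 (SD, n = 3). The 6 pairs of arrays differed by 0.43 to 0.79, or 1.35-fold to 1.73-fold. The mean difference of 0.61 corresponds to a ratio of 1.53 (95% interval 1.13 to 2.06).

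**Figure D1:**
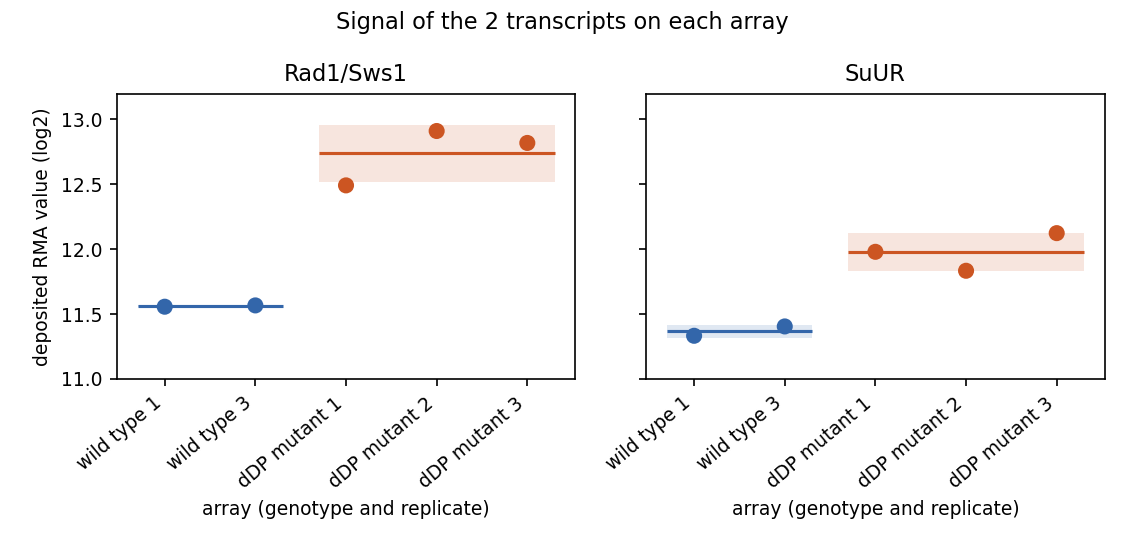
Deposited RMA value (log2, vertical axis, not starting at 0) of the Rad1/Sws1 and SuUR transcripts on each of the 5 arrays; points are arrays, lines are genotype means and shaded bands are 1 SD (n = 2 wild type, n = 3 mutant). All 3 mutant points lie above both wild-type points for each transcript, with smallest gaps of 0.92 and 0.43.

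The mutant arrays did not fall in the same order for both transcripts. Mutant replicate 2 had the highest Rad1/Sws1 value of the 3 and the lowest SuUR value. Mutant replicate 1 was the lowest for Rad1/Sws1 and intermediate for SuUR, and replicate 3 was intermediate for Rad1/Sws1 and the highest for SuUR. In the wild type, replicate 3 was higher than replicate 1 for both transcripts, by 0.00989 for Rad1/Sws1 and 0.071 for SuUR. Among arrays of the same replicate number, the mutant exceeded the wild type by 0.93 (number 1) and 1.25 (number 3) for Rad1/Sws1. For SuUR these differences were 0.65 and 0.72.

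Separation of the genotypes was common on these arrays. Every mutant array exceeded both wild-type arrays for 3592 transcripts, or 21.6% of those measured, so lack of overlap does not set Rad1 and SuUR apart. The gap and the difference of means belong to the contrast known when both were chosen, so their ranks are description only. For Rad1/Sws1 440 transcripts, or 2.64%, had a larger gap between the lowest mutant and the highest wild-type value. For SuUR 1087 transcripts, or 6.53%, had a larger one. By the difference of means, 714 transcripts exceeded Rad1/Sws1 and 1865 exceeded SuUR, which places them at the percentiles 95.7 and 88.8. The median difference over all transcripts was 0.01, with percentiles 5 and 95 at -1.19 and 1.09.

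Neither transcript passed the test run across all transcripts. limma with Benjamini-Hochberg adjustment at 0.05 called 236 transcripts higher in the mutant, or 1.42% of those measured, and 0 of the 2 members were among them. The adjusted p was 0.0639 for Rad1/Sws1 and 0.171 for SuUR, and 361 and 1417 transcripts had smaller p-values. These p-values are given as a limit only, since the transcripts were picked on the same contrast. The 236 calls are themselves an unsteady yardstick: the count was 0 without moderation and 0 without wild-type replicate 1 or 3 or mutant replicate 2 or 3 (2035, 2092, 1219, 2931 and 2601 transcripts at an unadjusted limma p below 0.05), and 102 without mutant replicate 1. With all arrays, the smallest rise that limma called was 1.1. Of the 236 called rises, 2 were no larger than the Rad1/Sws1 difference and 0 were as small as that of SuUR. Array weights were 0.546, 1.8 and 0.358 for mutant replicates 1, 2 and 3, and 1.69 for each wild-type array. With these weights limma called 558 of 16637 transcripts higher instead of 236, and Rad1/Sws1 passed (limma adjusted p = 0.0181). Across the 14 alternatives run, its adjusted p ranged from 0.0181 to 0.436.

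**Figure D2:**
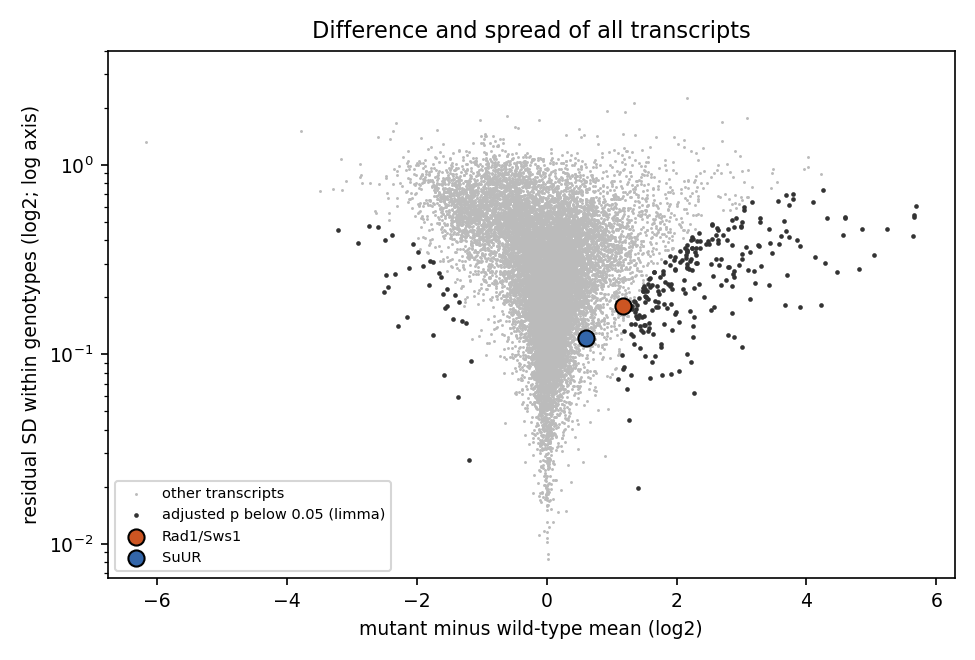
Each point is 1 of 16637 transcripts, by the difference of mutant and wild-type means (log2, horizontal axis) and the residual SD within genotypes (log2 units, log vertical axis); dark points passed limma at an adjusted p below 0.05. Rad1/Sws1, at 1.18 and 0.18, lies beside the dark points, and SuUR, at 0.61 and 0.122, lies within the grey ones.

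Within genotypes both transcripts varied less than the median transcript. The wild-type arrays differed by 0.00989 for Rad1/Sws1, and 601 transcripts differed by less, which is the percentile 3.61; for SuUR the difference of 0.071 stood at the percentile 21.8. The median over all transcripts was 0.195. The SD of 0.007 for Rad1/Sws1 in the wild type thus rests on 2 very close values and is a poor estimate of the spread between arrays. In the mutant the range was 0.419 for Rad1/Sws1 (percentile 36.3) and 0.29 for SuUR (percentile 22.7), against a median of 0.565. The residual SDs of 0.18 and 0.122 stood at the percentiles 29.2 and 15.2. For each transcript the smallest gap between genotypes was larger than the range of the mutant arrays. That gap is part of the contrast on which both were chosen, and the share of all transcripts meeting this was not counted.

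Within the arrays both transcripts moved from just below the middle of the signals to above it. Signal also depends on a transcript's probes, so these positions describe the arrays and do not compare the abundance of Rad1 with that of SuUR. On both wild-type arrays the Rad1/Sws1 signal stood at the percentile 48.6, at ranks 8550 and 8558 from the brightest. On mutant replicates 1, 2 and 3 it stood at the percentiles 63.8, 73.1 and 70.6, at ranks 6015, 4481 and 4883. Relative to the array median it went from -0.09 on both wild-type arrays to between 0.8 and 1.27 in the mutant. The SuUR signal stood at the percentiles 45.3 and 46.1 in the wild type and at 54.7, 53.2 and 57.6 in the mutant. Relative to the median it went from -0.31 and -0.25 to between 0.19 and 0.48. For both transcripts the array median thus lay between the wild-type and the mutant values. With array medians nearly equal, this shift restates the difference of means known when the transcripts were chosen.

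**Figure D3:**
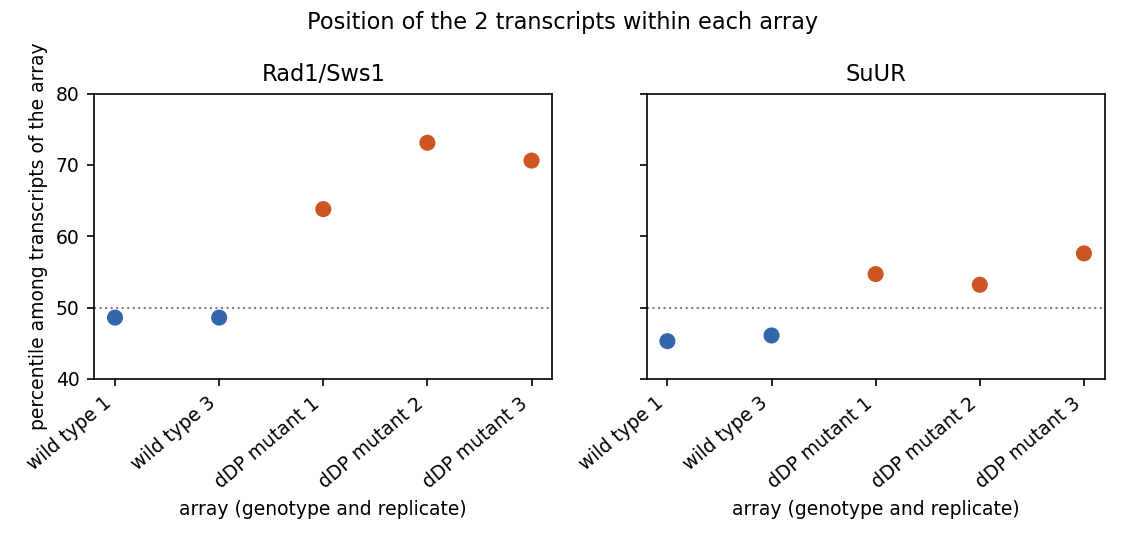
Percentile of each transcript's signal among all 16637 transcripts of the same array (vertical axis, not starting at 0), by array; the dotted line marks the array median. Wild-type points lie at 45.3 to 48.6 and mutant points at 53.2 to 73.1.

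Among transcripts of like brightness, rises and falls nearly balanced, so the small median below does not mean that single transcripts differed little. With all transcripts in 4 equal groups by mean signal, numbered from the dimmest, both members fell in group 3, whose 4159 transcripts had a median difference of 0.04. Within that group 110 transcripts had a larger difference than Rad1/Sws1 and 388 a larger one than SuUR, placing them at the percentiles 97.3 and 90.6. Both were chosen with this difference known, so these places are description only. Every mutant array exceeded both wild-type arrays for 24.4% of the group, and limma called 42 of its 4159 transcripts higher at the same threshold.

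Other genes of both pathways were mostly not analysed here, because the reference gene table used for names linked only 44 of the 16637 FlyBase transcript identifiers to genes. Of 34 symbols listed for the checkpoint clamp, its loader and DNA damage signalling, only Rad1 was linked to a transcript. Of 39 listed for endoreplication and late replication, only SuUR was. Rad9, Hus1-like, mei-41, Rif1, E2f1 and CycE were among those not analysed here. Of 16 listed for telomeres and chromatin, 4 were linked, and 0 of these passed the limma test. Over all transcripts limma called 271 of 16637, 236 (1.42%) higher and 35 lower, so 0 of 4 is no result about these genes.

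The transcript of moi, a telomere-capping protein, and of Tgs1, which adds methyl groups to the existing cap of small nuclear and nucleolar RNAs, read 12.15 and 12.1 in the wild type and 12.54, 12.6 and 12.7 in the mutant. Its mutant values all lay above both wild-type values (difference 0.49, limma adjusted p = 0.208). The deacetylase gene HDAC3 read 12.57 and 12.6 in the wild type and 12.77, 12.69 and 13.12 in the mutant, also without overlap (difference 0.27, limma adjusted p = 0.552). The chromatin remodeller kis read 13.89 on both wild-type arrays and 13.97, 13.69 and 13.44 in the mutant, on either side of the wild type (limma adjusted p = 0.69). His4r, a histone H4 gene outside the histone cluster, read 14.56 and 14.53 against 14.44, 14.71 and 14.18, and its genotypes overlapped (limma adjusted p = 0.839). The median difference of all 44 named transcripts was 0.15. Every mutant array lay above both wild-type arrays for 16 of the 44, against 3592 of all 16637 transcripts (21.6%). The named transcripts were mostly bright, with a median percentile of mean signal of 77.2, so these counts do not compare like with like. In order of difference Rad1/Sws1 stood 1 and SuUR 5 among the 44, and the order of the gaps gave the same places; the members were chosen from this set.

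**Figure D4:**
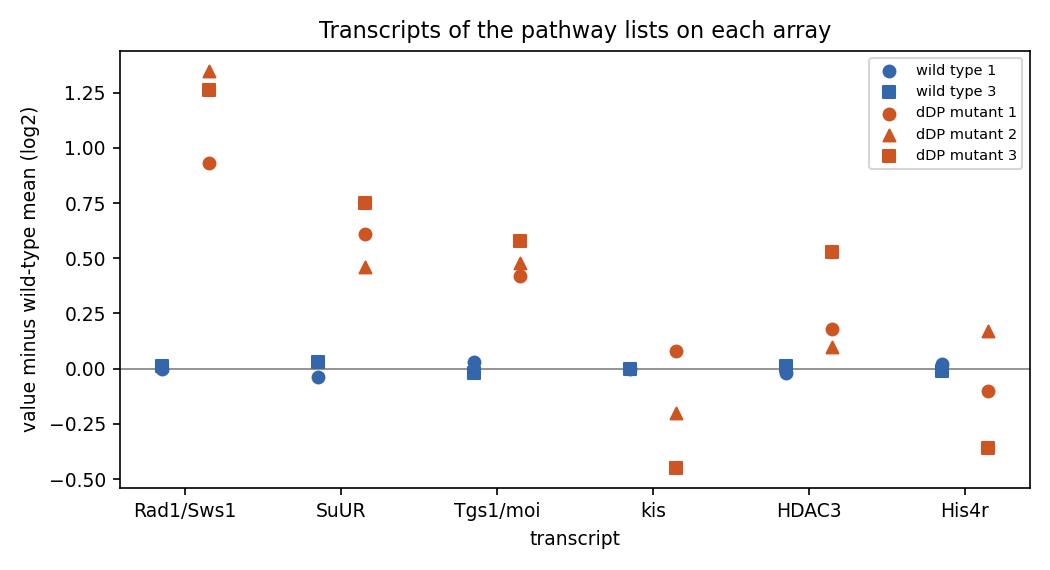
Value on each array minus the wild-type mean of the same transcript (log2, vertical axis) for the 6 transcripts that the pathway lists reached; blue marks are wild-type and orange marks mutant arrays, with 1 shape per replicate number. Mutant marks lie above both wild-type marks for Rad1/Sws1, SuUR, Tgs1/moi and HDAC3, and on both sides for kis and His4r.

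Transcripts with the most similar pattern were found by the root mean square difference of array deviations from each transcript's own mean, over 5 arrays. Nearest to Rad1/Sws1 was FBtr0079590, at 0.0441, where the median transcript lay at 0.64. It read 11.31 and 11.32 in the wild type and 12.22, 12.55 and 12.58 in the mutant. Of the named transcripts, the nearest to Rad1/Sws1 were NaPi-III, a phosphate transporter gene, at 0.203, CG7950/Rpp14a, which includes a ribonuclease P subunit, at 0.254, and PIG-P/Tcs6 at 0.294. They took places 114, 276 and 442 in the order over all transcripts. Nearest to SuUR was FBtr0072169, at 0.0183, with 10.93 and 10.99 in the wild type and 11.58, 11.39 and 11.68 in the mutant; the median transcript lay at 0.396. Of the named transcripts CG7950/Rpp14a at 0.0866, Tgs1/moi at 0.101 and CG42488/CG5116 at 0.113 were nearest to SuUR, at places 64, 114 and 177. Rad1/Sws1 and SuUR lay 0.333 apart. SuUR took place 693 in the order from Rad1/Sws1, and Rad1/Sws1 place 6017 in the order from SuUR. The measure counts size as well as order, and it includes the genotype difference known when the members were chosen. Many transcripts were nearer to each member than the other member was.

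**Figure D5:**
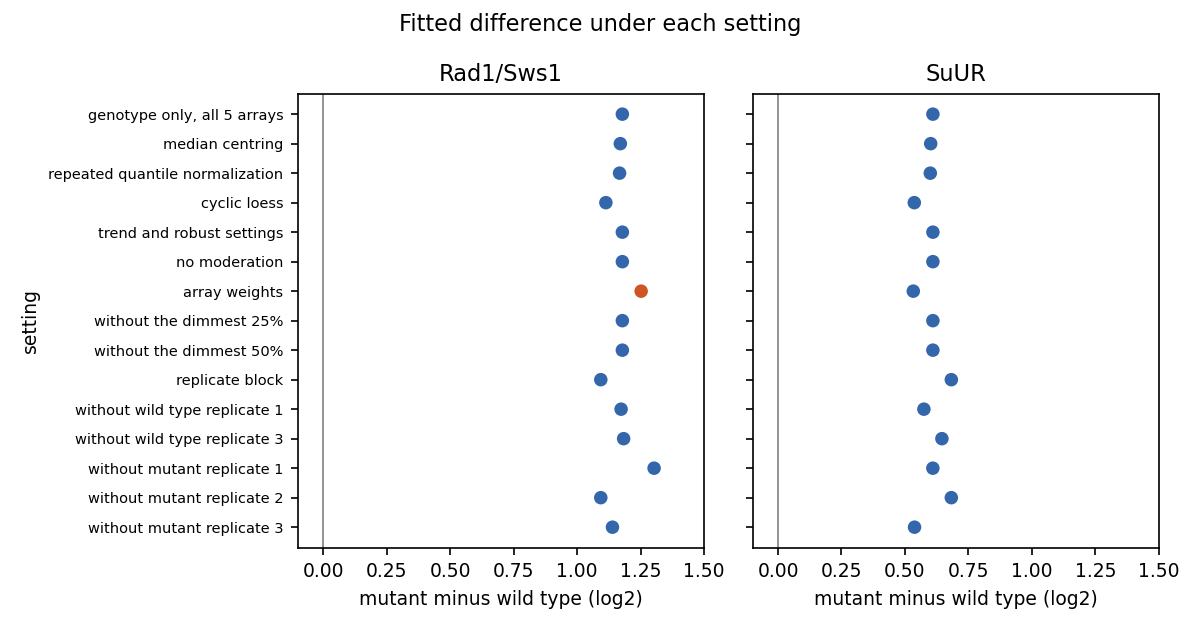
Fitted difference between mutant and wild type (log2, horizontal axis) for each transcript under the setting reported and 14 alternatives (vertical axis); the orange point has a limma adjusted p below 0.05 and blue points do not. All points lie to the right of 0, between 1.093 and 1.303 for Rad1/Sws1 and between 0.5329 and 0.6828 for SuUR.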

How the data were processed

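Per the submitters' processing notes, the authors used RMA and the package oligo, without stated versions, and the table holds 1 value per FlyBase transcript. The deposited values are treated as log2, the form in which RMA writes them. No source used here states the base, and with another one the ratios would differ. RMA equalises arrays, so a shift of most transcripts would not show. The genome build and annotation, and whether dim probes were filtered, is not given in the sources used here, and no background signal was used, so no floor can be set; the number of arrays limits precision.

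Gene names came from synonyms in the RefSeq gene table (Release 6 plus ISO1 MT), which named 44 transcripts, 28 of them with several genes. Coordinates are not printed because the array's annotation release is unknown. Differences were fitted with limma 3.58.1 (R 4.3.3; lmFit and eBayes, genotype only, all 5 arrays, 16637 transcripts, 3 residual and 2.32 prior degrees of freedom), with Benjamini-Hochberg adjustment over all transcripts; the fit was tested on simulated data. No transcript was filtered. Percentiles give the share of transcripts below a value. The text names both members, the pathway lists and, by pattern, the nearest transcripts (1 identifier and 3 named for each member). Members and lists were chosen with earlier results of these data known. Wild-type and mutant arrays share replicate numbers 1 and 3, which no label gives a meaning across genotypes, so they do not enter the fit. matplotlib 3.10.9 drew the figures.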

Additional observations from a re-analysis of the deposited data

How the results depend on the processing

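The Rad1/Sws1 and SuUR differences were positive in all 14 alternatives each (3 further normalisations, 2 variance models, array weights, 2 filters on dim transcripts, the replicate block and each array left out). Values ran from 1.093 to 1.303 for Rad1/Sws1 and from 0.5329 to 0.6828 for SuUR, and leaving out an array gave 1.093 to 1.303 and 0.5378 to 0.6828. The sign was fixed in all alternatives but the 3 further normalisations, because the groups do not overlap. The 2 variance models and 2 filters left the differences unchanged at 1.178 and 0.6102. Rad1/Sws1 passed in 1 alternative, array weights, at 1.252 (limma adjusted p = 0.0181), and SuUR in 0, with adjusted p from 0.106 to 0.726. With the replicate block the differences were 1.093 and 0.6828 (limma adjusted p = 0.0771 and 0.168). No wild-type array has number 2, so mutant replicate 2 does not enter these differences, which equal those without it. The block also leaves fewer residual degrees of freedom than the main fit. Same-numbered arrays deviated together at r = 0.52 and 0.21, but deviations within 2 wild-type arrays mirror each other, so this does not pair them. Within same-numbered arrays, a comparison added after the data were seen, Rad1/Sws1 differed by 0.9345 for number 1. The 271 calls over all transcripts (236 higher, 35 lower) became 683 with array weights, 858 with the replicate block (331 higher, 527 lower), 53 without the dimmest 50% of transcripts, 617 at an adjusted p below 0.1, and 0 without moderation (2035 at an unadjusted p below 0.05). Leaving out an array gave 0 to 118: 118 without mutant replicate 1, and 0 without wild-type replicate 1 or 3 or mutant replicate 2 or 3 (2092, 1219, 2931 and 2601 at an unadjusted limma p below 0.05). With 1 wild-type array left, it is assumed to vary like the mutant ones. The count of transcripts with every mutant array above the wild type stayed within 1.5 times of 3592. What causes the counts to move was not tested. The motif search in promoters and its looser spelling were not run, since no promoter sequence was used here.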
